A study of Mus musculus with 12 samples.

Results

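The nuclear genes of oxidative phosphorylation were examined in mouse liver across feeding state and loss of the hepatic glucose transporter. The members are the genes whose symbol on the array starts with Ndufa, Ndufb, Ndufc, Ndufs, Ndufv, Uqcr, Cox4 to Cox8 or Atp5, or is Sdha, Sdhb, Sdhc or Sdhd. Each symbol was read by 1 probe set, the brightest over the 12 arrays among probe sets annotated with 1 symbol. The rule gave 90 members among 18194 genes: 36 subunits of complex I, 8 assembly factors of complex I (the Ndufaf genes), 4 genes of complex II, 8 of complex III, 17 of complex IV and 17 of complex V. Complexes were assigned by symbol, so Ndufa4 and Ndufa4l2 count with complex I and Cox7a2l with complex IV. The mitochondrial DNA encodes further subunits, which the rule does not take.

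Oxidative phosphorylation runs in the inner mitochondrial membrane. Complex I takes electrons from NADH and complex II from succinate, ubiquinone carries them to complex III, and cytochrome c carries them on to complex IV, which reduces oxygen. Complexes I, III and IV pump protons, and complex V, the ATP synthase, lets them flow back to make ATP. In liver the chain serves fat oxidation and glucose production during a fast as well as the use of sugar after a meal.

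The 4 groups of livers cross genotype with feeding, with 3 arrays each. They are control and LG2KO, each either fasted or fasted and then refed. All mice had the mixed background SV129XC57Bl/6. LG2KO is not spelt out in the labels and is read here as loss of the glucose transporter Glut2, the product of Slc2a2, in liver; these mice were treated with tamoxifen and the controls carry no tamoxifen label, so the effects of the deletion and of the drug cannot be told apart. The sources used here do not give the promoter that drives the deletion, age, sex or the length of the fast. Each array held RNA pooled from 3 animals, so the replicate is the pool (n = 3 per group), and p-values measure the spread between pools. For the LG2KO fasted arrays 1 field speaks of refeeding too, and these arrays were grouped by title and diet, which both give fasting.

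The log2 level of Slc2a2 was 10.67, 11.30 and 10.90 in refed controls and 10.002, 11.08 and 10.82 in fasted controls. In LG2KO livers it was 3.79, 3.64 and 3.80 after refeeding and 4.02, 4.13 and 3.56 when fasted, so the genotypes did not overlap and the labels held; where the probe set lies relative to the deleted part is not known. Hepatocyte markers averaged 13.34 to 13.68 on every array. Arrays within a group correlated at 0.984 to 0.996. Control refed replicate 1 and LG2KO fasted replicate 3 stood apart, with best correlations to their own group of 0.987 and 0.988, and values without this pair are given beside the results whose call or size moved most. Control fasted replicate 3 was high in transcripts of other tissue: its 7 exocrine pancreas markers averaged 8.26 against at most 5.78 elsewhere, and its 12 muscle markers averaged 5.49 against at most 4.65. Single markers varied. Of the pancreas genes, Ctrb1 stood at 9.18 there against at most 5.51 elsewhere, but Cela1 at 9.40, within the 8.59 to 9.48 of the other arrays. The cause was not tested. Livers were taken whole, so fewer cells of a type and less RNA per cell cannot be told apart.

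Stretches of promoter are shown for 4 members whose transcripts changed with feeding: Cox7a2l, which had the largest fall in both genotypes at the adjusted threshold, and 3 complex I genes with a core motif of NRF1, a transcription factor known for switching on respiratory chain genes. Each is the 250 bases before the annotated start of transcription, 5′ to 3′ along the gene, from RefSeq on build GRCm38.p6. Capitals mark the core TGCGCA, of which 5 of 6 letters lie in the Ndufa8 stretch and the last lies past the start.
Cox7a2l (chr17:83514334-83514583, minus strand): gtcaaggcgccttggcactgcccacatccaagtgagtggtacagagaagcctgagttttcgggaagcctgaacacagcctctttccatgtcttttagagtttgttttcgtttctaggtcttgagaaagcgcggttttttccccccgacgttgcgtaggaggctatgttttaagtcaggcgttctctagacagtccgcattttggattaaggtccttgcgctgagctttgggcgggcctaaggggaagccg
Ndufa8 (chr2:36049339-36049588, minus strand): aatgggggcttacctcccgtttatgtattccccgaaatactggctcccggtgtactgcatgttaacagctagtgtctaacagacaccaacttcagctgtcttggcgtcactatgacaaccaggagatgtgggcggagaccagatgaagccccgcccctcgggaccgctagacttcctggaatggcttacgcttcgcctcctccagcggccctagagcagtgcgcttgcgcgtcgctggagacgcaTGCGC
Ndufa6 (chr15:82354292-82354541, minus strand): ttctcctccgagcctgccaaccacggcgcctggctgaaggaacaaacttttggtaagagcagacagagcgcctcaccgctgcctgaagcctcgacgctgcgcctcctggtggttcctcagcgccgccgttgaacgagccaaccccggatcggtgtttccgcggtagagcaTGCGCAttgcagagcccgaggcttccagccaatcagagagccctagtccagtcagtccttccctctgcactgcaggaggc
Ndufa9 (chr6:126849145-126849394, minus strand): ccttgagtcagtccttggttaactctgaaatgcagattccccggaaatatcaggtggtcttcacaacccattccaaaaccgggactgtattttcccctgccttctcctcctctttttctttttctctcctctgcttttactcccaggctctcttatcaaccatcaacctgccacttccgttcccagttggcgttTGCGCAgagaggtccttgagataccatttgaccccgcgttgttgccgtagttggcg

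The Cox7a2l stretch held none of the 4 motifs searched. The NRF1 core began at -80 in Ndufa6, with another at 29 past the start, at -56 in Ndufa9 and at -5 in Ndufa8. RefSeq promoters were matched for 74 of the 90 members, giving 79 windows of 300 bases (250 before and 50 after the start), and both strands were searched. TGCGCA, which reads the same on both strands, lay in 19 of 79 member windows (24.1%) against 7.76% of all 32851 windows. The core of the ETS family, to which GABP belongs, is CCGGAAG, which reads CTTCCGG on the opposite strand, and it also lay in 19 (24.1%, against 8.86%). AAGGTCA, the half-site of the estrogen-related receptors, lay in 8 (10.1%, against 4.72%), and the cyclic AMP response element TGACGTCA in 3 (3.8%, against 1.79%). The NRF1 and ETS cores overlapped in 0 member windows, but their letters do not allow an overlap, so this says nothing about the members.

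Of the 14 members that changed in any comparison below, 12 had a window. Among these 12, the NRF1 core lay in 3 (those shown), the ETS core in 1 (Sdhb), and the other motifs in 0. A match is a run of letters in this window, not evidence of binding.

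Respiratory chain transcripts differed little between the groups. For 80 to 82 of the 90 members the 95% interval of the control refeeding difference and of the refed genotype difference lay within 1.5-fold either way, as it did for 85 members in the fasted genotype comparison and 77 in LG2KO refeeding. The same held for 74.2%, 79.1%, 83.7% and 73.2% of all genes in those comparisons, in the order control refeeding, refed genotype, fasted genotype and LG2KO refeeding.

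**Figure D1:**
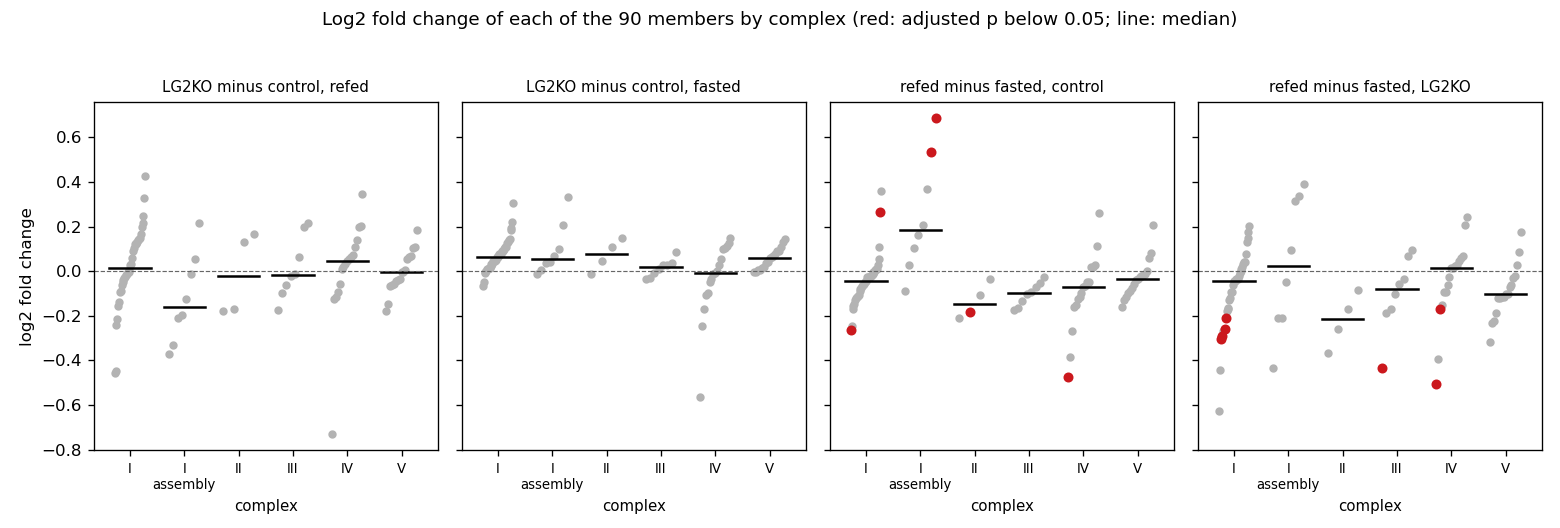
Log2 fold change (vertical axis) of each of the 90 members, grouped by complex (horizontal axis), in 4 panels for refeeding in each genotype and for genotype in each feeding state. Each point is 1 gene, red where it passed the test, and the line is the median of the complex; most points lie close to 0, and red points appear only in the refeeding panels, 6 in controls and 7 in LG2KO.

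In control livers 3 members fell and 3 rose on refeeding. Cox7a2l, Ndufv1 and Sdhb fell, while Ndufa8 and the complex I assembly factors Ndufaf3 and Ndufaf5 rose. With limma over all 18194 genes, 6 of 90 members passed at an adjusted p below 0.05 (6.67%), against 6.46% of all genes. The share was thus close to that of all genes. Among the brighter 9097 genes by mean level, 551 rose and 541 fell, a larger share than among the members. By direction, 3.29% of all genes rose and 3.17% fell, against 3 members each way. The median member difference was -0.05, against -0.01 for all genes, and the difference was negative for 66 of 90 members. Without control refed replicate 1 the member median was -0.0148, so its size rested on that array.

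Cox7a2l encodes a protein that helps to join complexes III and IV into supercomplexes and is related to the Cox7a subunits rather than being a core subunit of complex IV. Strains of the C57BL/6 family carry a shortened form of the protein and many other strains the long one, and the probe sets are not known to tell them apart. Its log2 level was 11.51, 11.44 and 11.54 in fasted controls and 11.001, 11.01 and 11.06 in refed controls, so every refed pool lay below every fasted pool. The fall was 1.39-fold, with a log2 difference of -0.47 ± 0.06 (SE; adjusted p = 0.000577). The other probe sets of the gene gave -0.42 and -0.43.

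Ndufv1 encodes the flavin-bearing core subunit of complex I that binds NADH. Its log2 level was 12.49, 12.45 and 12.44 in fasted controls and 12.11, 12.20 and 12.28 after refeeding, without overlap. The difference was -0.26 ± 0.06 (adjusted p = 0.017), and the 3 probe sets of the gene lay between -0.26 and -0.25. Sdhb, the iron-sulphur subunit of complex II, was at 12.87, 12.78 and 12.76 when fasted and 12.54, 12.65 and 12.66 when refed. Its difference of -0.18 ± 0.05 was just inside the threshold (adjusted p = 0.04995), and the groups did not overlap.

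Ndufa8, an accessory subunit of complex I, went the other way, from 12.10, 11.95 and 12.01 in fasted controls to 12.19, 12.35 and 12.32 in refed ones. The rise was 0.26 ± 0.06 (1.2-fold, adjusted p = 0.0224) without overlap. Ndufaf3, which helps to build the arm of complex I that takes up electrons, was at 9.31, 9.27 and 9.36 when fasted and 9.53, 9.98 and 10.02 when refed. It rose by 0.53 ± 0.11 (adjusted p = 0.0145), and all refed pools lay above all fasted pools although control refed replicate 1 was well below the other refed pools. Ndufaf5, which modifies a core subunit during assembly, was at 6.31, 6.27 and 6.62 when fasted and 7.13, 7.10 and 7.02 when refed. It rose by 0.69 ± 0.15 (1.61-fold, adjusted p = 0.0166), the largest difference of any member in this comparison, and again the groups were apart.

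**Figure D2:**
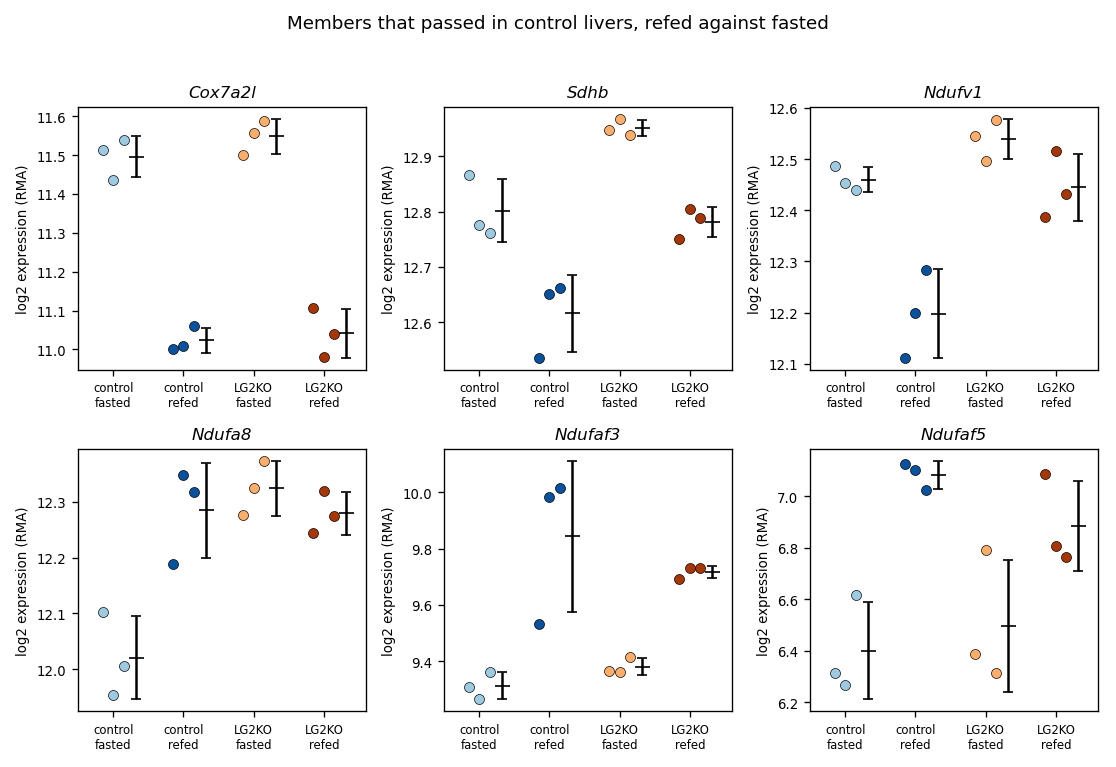
Log2 level (vertical axis) of the members that changed on refeeding of control livers, 1 panel per gene; points are the 3 arrays of each group and bars the mean ± SD, with groups in the order control fasted, control refed, LG2KO fasted and LG2KO refed. In each panel the 3 control refed arrays lie wholly above or wholly below the 3 control fasted arrays.

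By complex, the assembly factors of complex I had a positive median in control refeeding (0.18, 7 of 8 positive), whereas the subunits of the same complex had a negative one (-0.04, 8 of 36 positive). Complex II was at -0.15 with 0 of 4 positive, and complex III at -0.10 with 0 of 8 positive. Complex IV was at -0.07 and complex V at -0.04. In complex III no member passed, and Uqcrc2 had its lowest value at -0.17 ± 0.10 (adjusted p = 0.438). In complex V, Atp5h, a subunit of the stalk, was lowest at -0.16 ± 0.05 with an adjusted p of 0.0596. Atp5g1 was highest in complex V at 0.21 ± 0.10 (adjusted p = 0.352).

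The groups of arrays did not overlap for 5 members that were higher after refeeding of controls (5.56%, against 9.64% of all genes) and for 14 that were lower (15.6%, against 10.8%). Without the pair of arrays that stood apart, 10 of 90 members passed (11.1%, against 12.1% of all genes), 6 of them higher. These were 5 of the 6 named above, with Sdhb lost at -0.14 ± 0.05, together with Atp5g1, Atp5pb, Ndufaf7, Ndufb1 and Sdha. Without the pair the complex I median was 0.01, so its sign depended on those arrays. Centring each array left 3 calls, Cox7a2l lower and Ndufaf3 and Ndufaf5 higher.

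Cox7a2l passed when any 1 array was left out, and the other 5 calls each missed without at least 1 array. The number of members called was 1 without control refed replicate 2, 2 without control fasted replicate 1 and 1 without control fasted replicate 2, and 4 without control refed replicate 3 or control fasted replicate 3. Sdhb missed without each of the 6 arrays.

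In LG2KO livers 7 members fell on refeeding and 0 rose. Cox7a2l fell again, and so did Ndufa1, Ndufa4, Ndufa6 and Ndufa9 of the complex I group, Uqcrc2 of complex III and Cox6c of complex IV. The 7 of 90 (7.78%) compare with 7.05% of all genes called in either direction. In the lower direction alone the background was 2.4%, and in the higher direction, where 0 members passed, it was 4.66%. Of the brighter 9097 genes, 402 fell and 809 rose. The median member difference was -0.06 against 0.01 for all genes, and 61 of 90 members were negative. With an unadjusted p below 0.05 there were 27 members (30%), against 18.2% of all genes. Among the brighter 9097 genes the share was 31.2%, so the members showed no excess over bright genes.

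In LG2KO livers the log2 level of Cox7a2l was 11.50, 11.56 and 11.59 when fasted and 11.11, 10.98 and 11.04 when refed. The difference of -0.51 ± 0.06 (1.42-fold, adjusted p = 0.000393) had no overlap, and the other probe sets gave -0.58 and -0.57. The control and LG2KO values of this gene thus lay side by side in both feeding states, with an interaction of -0.03 ± 0.09.

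Uqcrc2 encodes core protein 2 of complex III. It was at 12.01, 12.06 and 11.88 in fasted LG2KO livers and 11.69, 11.58 and 11.38 in refed ones, without overlap, and fell by 0.43 ± 0.10 (1.35-fold, adjusted p = 0.0179). A second probe set of Uqcrc2 gave -0.39 with an adjusted p of 0.099 over all probe sets. In controls the same gene was at 11.92, 11.83 and 11.93 when fasted and 11.92, 11.66 and 11.59 when refed, where control refed replicate 1 lay among the fasted values.

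Ndufa9, an accessory subunit near the ubiquinone site of complex I, was at 11.75, 11.77 and 11.68 in fasted LG2KO livers and 11.51, 11.45 and 11.34 in refed ones. It fell by 0.30 ± 0.06 (adjusted p = 0.011), and the groups did not overlap. Control values of Ndufa9 were also apart, with a difference of -0.15 ± 0.06 that missed the threshold (adjusted p = 0.25). Ndufa6, another accessory subunit of complex I, was at 12.46, 12.47 and 12.35 when fasted and 12.24, 12.20 and 11.97 when refed. It fell by 0.29 ± 0.08 (adjusted p = 0.0404), with the lowest value in LG2KO refed replicate 3, and the groups stayed apart.

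Ndufa4, named after complex I but now placed with complex IV, was at 12.86, 12.94 and 12.81 in fasted LG2KO livers and 12.69, 12.59 and 12.55 in refed ones. It fell by 0.26 ± 0.07 (adjusted p = 0.0313) without overlap. Its control values of 12.92, 12.79 and 12.91 when fasted and 12.94, 12.86 and 12.74 when refed were mixed together. The interaction for Ndufa4 was -0.23 ± 0.09 with an adjusted p of 0.986, so the genotypes were not shown to differ.

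Ndufa1, a small membrane subunit of complex I, was at 12.17, 12.12 and 12.04 in fasted LG2KO livers and 11.92, 11.92 and 11.85 in refed ones, and fell by 0.21 ± 0.06 (adjusted p = 0.0421). Cox6c, a small subunit of complex IV, was at 12.76, 12.72 and 12.74 when fasted and 12.58, 12.62 and 12.52 when refed, and fell by 0.17 ± 0.05 (adjusted p = 0.047). In both genes the fasted and refed LG2KO pools were apart.

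**Figure D3:**
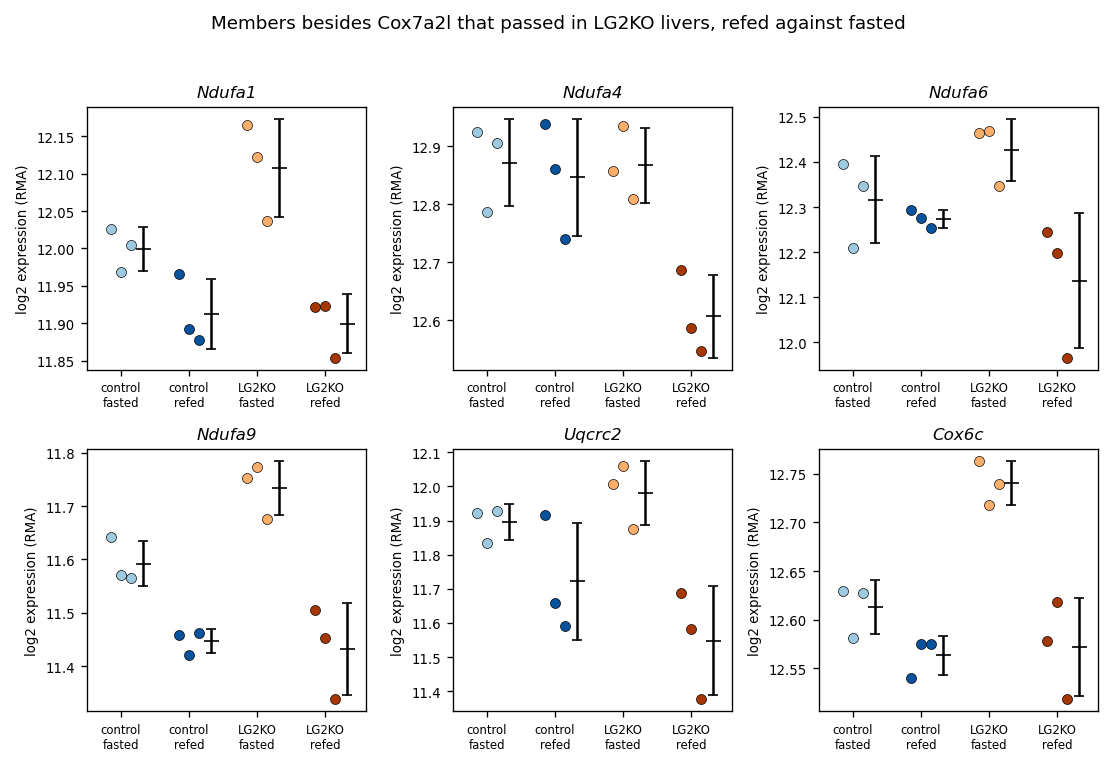
Log2 level (vertical axis) of the 6 members besides Cox7a2l that changed on refeeding of LG2KO livers, 1 panel per gene; points are the 3 arrays of each group and bars the mean ± SD, with groups in the order control fasted, control refed, LG2KO fasted and LG2KO refed. In each panel the 3 LG2KO refed arrays lie below the 3 LG2KO fasted arrays, and the control groups lie closer together. The genes were picked because they passed in LG2KO, so the panels are no test of a genotype difference. The control groups of Ndufa1, Ndufa9 and Cox6c are also apart.

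By complex, the LG2KO refeeding medians were -0.04 for complex I (11 of 36 positive), 0.02 for its assembly factors, -0.21 for complex II (0 of 4 positive), -0.08 for complex III, 0.01 for complex IV and -0.10 for complex V. In complex V 14 of 17 members were negative and 0 passed; Atp5pb, a stalk subunit, was lowest at -0.32 ± 0.14 (adjusted p = 0.231). The median of complex IV turned to -0.00 when arrays were centred. Fasted and refed LG2KO arrays did not overlap for 24 members that were lower (26.7%, against 8.38% of all genes) and for 7 that were higher (7.78%, against 14.1%). Of these 24, 8 were among the 36 of complex I and 8 among the 17 of complex V. The members share the same pools, so they are not independent of one another.

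Without LG2KO fasted replicate 3 and control refed replicate 1, the arrays that stood apart, 21 of 90 members passed (23.3%, against 17.5% of all genes), 18 lower and 3 higher, and all 7 above were among them. Ndufs1, the largest core subunit of complex I, was 1 of those added. In LG2KO livers its log2 level was 9.62, 9.25 and 8.41 when fasted and 8.39, 8.71 and 8.30 when refed. The low fasted value is that of replicate 3, within the refed range. In controls Ndufs1 was at 8.89, 8.997 and 9.25 when fasted and 9.64, 8.66 and 8.48 when refed, with the high refed value in replicate 1. The LG2KO difference was -0.62 ± 0.31 with all arrays (adjusted p = 0.332) and -0.97 ± 0.15 without the pair (adjusted p = 0.00181).

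Sdha, the flavin subunit of complex II, followed the same arrays. It was at 11.72, 11.57 and 11.12 in fasted and 11.11, 11.19 and 11.004 in refed LG2KO livers, with replicate 3 the low fasted value. The difference was -0.37 ± 0.15 (adjusted p = 0.197), and -0.54 ± 0.08 without the pair (adjusted p = 0.00092). In controls it was at 11.42, 11.51 and 11.52 when fasted and 11.57, 11.07 and 11.17 when refed, again with replicate 1 high. There the difference was -0.21 ± 0.15 (adjusted p = 0.582), and -0.36 ± 0.08 without the pair (adjusted p = 0.0101). Sdhb fell by 0.18 ± 0.05 without the pair in LG2KO (adjusted p = 0.0329), while Sdhc was at -0.09 ± 0.09 and Sdhd at -0.26 ± 0.08 (adjusted p = 0.0726) with all arrays.

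Cox7a2l was the member called in LG2KO refeeding when any 1 array was left out; the other 6 calls each missed without at least 1. The number called was 2 without LG2KO refed replicate 2, 1 without LG2KO refed replicate 3 and 1 without LG2KO fasted replicate 1 or 2. Cox6c missed without each of the 6 arrays.

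The 3 genes Atp5g1, Atp5g2 and Atp5g3 encode the same c subunit of the ATP synthase rotor with different targeting sequences, and Atp5g1 is known as the form that responds to physiological state. Atp5g1 was at 12.09, 11.92 and 11.85 in fasted controls and 11.89, 12.30 and 12.29 in refed ones, with control refed replicate 1 among the fasted values. In LG2KO it was at 12.14, 12.01 and 12.14 when fasted and 12.21, 12.29 and 12.32 when refed, without overlap. The differences were 0.21 ± 0.10 in controls (adjusted p = 0.352) and 0.17 ± 0.10 in LG2KO (adjusted p = 0.444). Without the pair of arrays the control value was 0.34 ± 0.08 (adjusted p = 0.0126). Atp5g2 was at 0.08 ± 0.10 and -0.02 ± 0.10, and Atp5g3 at -0.02 ± 0.04 and -0.07 ± 0.04, in control and LG2KO refeeding.

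Among the best-known subunits most values lay close together in all groups. Cox4i1, which joins the catalytic core of complex IV early in assembly, lay between 13.24 and 13.40 on the 12 arrays, and its refeeding differences were -0.05 ± 0.04 in controls and 0.01 ± 0.04 in LG2KO. The catalytic ATP synthase subunit Atp5b lay between 13.26 and 13.40, with -0.04 ± 0.05 and -0.03 ± 0.05. Its partner Atp5a1 was at -0.13 ± 0.05 and -0.12 ± 0.05 (adjusted p = 0.222 and 0.238). These 3 genes did not pass in any of the 6 comparisons.

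Several subunits differed in sign between the genotypes without passing. Uqcrc1, core protein 1 of complex III, was at -0.17 ± 0.08 in control and 0.07 ± 0.08 in LG2KO refeeding, while Uqcrfs1, the Rieske iron-sulphur protein, was at -0.14 ± 0.08 and -0.17 ± 0.08. In complex IV, Cox8a was at -0.15 ± 0.07 and 0.06 ± 0.07 and Cox5a at -0.11 ± 0.05 and 0.02 ± 0.05. Their interactions had adjusted p-values of 0.99 (0.997 for Uqcrfs1), so no difference between the genotypes was shown.

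Ndufaf7, which methylates a core subunit during the assembly of complex I, stood near the threshold. It was at 7.54, 7.54 and 7.62 in fasted and 7.84, 8.03 and 7.94 in refed controls, without overlap, and at 7.58, 7.78 and 7.48 in fasted and 7.68, 7.53 and 7.49 in refed LG2KO livers, where the groups overlapped. The differences were 0.37 ± 0.11 (adjusted p = 0.0723) and -0.05 ± 0.11, with an interaction of -0.41 ± 0.16 (adjusted p = 0.953). Ndufb1, a small membrane subunit, was at 0.36 ± 0.11 in controls (adjusted p = 0.0923) and 0.20 ± 0.11 in LG2KO, and the refed pools lay above the fasted pools in both.

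Complex II is the one complex of the chain with all its subunits in the nuclear genome. When each gene was set against its own mean over the 12 arrays, the median of its 4 genes was 0.14, 0.16 and 0.11 on fasted LG2KO arrays and 0.08, 0.06 and -0.00 on fasted control arrays. It was -0.12, -0.10 and -0.08 on refed control and -0.04, -0.06 and -0.15 on refed LG2KO arrays. Every fasted array was thus above every refed array, with 1 of the 4 genes, Sdhb in controls, past the threshold.

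In fasted livers 0 members passed between the genotypes, while 69 of 90 members (76.7%) were higher in LG2KO, against 48.6% of all genes. The median was 0.05, against -0.00 for all genes. Of 18194 genes 72 passed (0.396%; 0.308% higher and 0.0879% lower in LG2KO), and 0 of 90 members did. With an unadjusted p below 0.05 there were 8 members (8.89%), against 5.2% of all genes and 7.63% of the brighter 9097.

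Positive differences were frequent in complex I, with a median of 0.07 and 32 of 36 subunits positive. The same held in complex V, with a median of 0.06 and 15 of 17 positive. The complex I assembly factors were at 0.06 with 7 of 8 positive, and complex II at 0.08 with 3 of 4 positive. Complex III was at 0.02 with 5 of 8 positive, and complex IV at -0.01 with 7 of 17 positive. All fasted LG2KO pools lay above all fasted control pools for 18 members (20%, against 4.67% of all genes), of which 11 were complex I subunits: Ndufa1, Ndufa2, Ndufa8, Ndufa9, Ndufa13, Ndufb7, Ndufb8, Ndufb9, Ndufb10, Ndufb11 and Ndufv1. The pools were apart in the other direction for Cox6b2 and Cox7b2 (2.22%, against 6.11%). All were measured on the same 6 pools, so they are not independent of one another. The fasted control group includes the pool with pancreas and muscle transcripts, and the median was also 0.05 without it.

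The member closest to passing in fasted livers was Ndufa8, at 12.10, 11.95 and 12.01 in controls and 12.28, 12.32 and 12.37 in LG2KO. The groups were apart, with a difference of 0.30 ± 0.06 (adjusted p = 0.0705). After refeeding the values of 12.19, 12.35 and 12.32 in controls and 12.24, 12.32 and 12.27 in LG2KO were mixed. The interaction for Ndufa8 was -0.31 ± 0.09, with the smallest adjusted p of any member at 0.677.

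In refed livers 0 of 90 members passed for genotype, against 69 of 18194 genes (0.379%; 0.291% higher and 0.0879% lower in LG2KO). The median member difference was 0.00 and 45 of 90 were positive. Single members nevertheless lay apart, with an unadjusted p below 0.05 for 21 (23.3%). The share was 9.13% of all genes and 13.9% of the brighter 9097. All LG2KO pools were above all control pools for 13 members (14.4%, against 10.3%) and below them for 7 (7.78%, against 5.19%).

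Ndufb2, a small accessory subunit of complex I, came closest in the refed state. It was at 11.57, 11.77 and 11.94 in controls and 12.16, 12.28 and 12.12 in LG2KO, a difference of 0.43 ± 0.08 (adjusted p = 0.0627) without overlap. The control values were widely spread, lowest in replicate 1. When fasted it was at 11.97, 12.09 and 11.96 in controls and 12.004, 12.04 and 12.08 in LG2KO, which overlap. Ndufb2 passed without control refed replicate 3, and Cox6b2 without control refed replicate 1; each time it was the only member that did.

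Averaged over both feeding states, 2 of 90 members differed between the genotypes (2.22%, against 1.02% of all genes). Ndufa13 was higher in LG2KO livers (background 0.737%) and Cox6b2 lower (background 0.28%). Ndufa13, an accessory subunit of complex I also known as GRIM-19, was at 12.90, 12.85 and 12.89 in fasted and 12.70, 12.87 and 12.88 in refed controls. In LG2KO it was at 13.12, 13.02 and 13.06 when fasted and 12.9998, 13.05 and 13.04 when refed, so all 6 LG2KO pools lay above all 6 control pools. The mean difference was 0.20 ± 0.04 (1.15-fold, adjusted p = 0.0342), made of 0.21 ± 0.06 in refed and 0.19 ± 0.06 in fasted livers.

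Cox6b2 encodes the testis form of a complex IV subunit, whose usual form is Cox6b1. It was at 6.31, 5.99 and 6.25 in fasted and 5.95, 6.28 and 6.37 in refed controls. In LG2KO it was at 5.48, 5.54 and 5.85 when fasted and 5.43, 5.40 and 5.58 when refed, and all 6 pools lay below all 6 control pools. The mean difference was -0.65 ± 0.10 (1.57-fold, adjusted p = 0.0112), with -0.73 ± 0.15 in refed and -0.56 ± 0.15 in fasted livers. Its levels lay at the 42.8 to 57 percentile of genes on their array, and background is not known there. Cox6b1, a different probe set, was between 12.58 and 12.94 on all arrays.

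Cox6b2 kept its call without any 1 of the 12 arrays. Ndufa13 kept it without any 1 control refed array and missed without any 1 of the other 9 arrays. Other members near the threshold were higher in LG2KO. They were Sdhb at 0.16 ± 0.04 (adjusted p = 0.0682), Cox5b, a zinc-binding subunit of complex IV, at 0.15 ± 0.04 (adjusted p = 0.071) and Ndufb8, a complex I subunit often used to gauge its assembly, at 0.26 ± 0.06 (adjusted p = 0.0854). Ndufb2 and Ndufb8 passed too without control refed replicate 3.

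**Figure D4:**
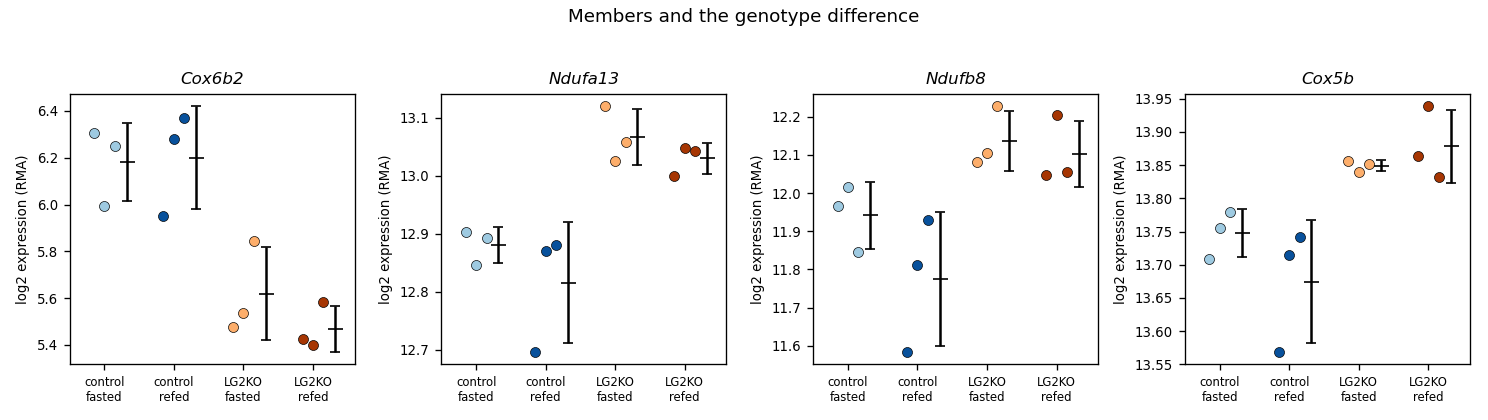
Log2 level (vertical axis) of Cox6b2, Ndufa13, Ndufb8 and Cox5b, which passed or came near the threshold between genotypes, 1 panel per gene; points are the 3 arrays of each group and bars the mean ± SD, with groups in the order control fasted, control refed, LG2KO fasted and LG2KO refed. Ndufa13 is higher on all 6 LG2KO arrays and Cox6b2 lower than on all 6 control arrays, and control refed replicate 1 is the lowest point for Ndufa13, Ndufb8 and Cox5b.

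The change on refeeding was not shown to depend on genotype for any member. In the test of the interaction 0 of 90 members passed, against 1 of 18194 genes (0.0055%). An unadjusted p below 0.05 was found for 9 members (10%), against 4.73% of all genes and 7.04% of the brighter 9097. The 6 members called in control refeeding and the 7 called in LG2KO share Cox7a2l. The other control calls had LG2KO values of -0.09 ± 0.06 for Ndufv1, -0.17 ± 0.05 for Sdhb, -0.05 ± 0.06 for Ndufa8, 0.34 ± 0.11 for Ndufaf3 and 0.39 ± 0.15 for Ndufaf5. The largest interactions by size were those of Cox8b at 0.59 ± 0.27, Ndufs1 at -0.50 ± 0.44 and Ndufaf1 at -0.41 ± 0.24, each with an adjusted p of 0.99. The interval lay within 1.5-fold either way for 73 of 90 members, so larger interactions remain possible for the rest.

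Forms of complex IV and complex I subunits known from other tissues form a small group of 8 within the members: Cox4i2, Cox6a2, Cox6b2, Cox7a1, Cox7b2, Cox8b, Cox8c and Ndufa4l2. Cox6b2 is the one that changed. Muscle forms were highest on control fasted replicate 3, the pool with muscle transcripts: Cox6a2 stood at 7.13 there and 6.37 to 7.06 elsewhere, Cox7a1 at 5.93 and 4.88 to 5.76, and Cox8b at 6.33 and 5.32 to 6.16. On the same array the muscle actin gene Acta1 stood at 8.75, against at most 4.78 on the others, while Myh4, a myosin gene of fast muscle, stood at 4.02, within the 3.92 to 4.31 of the others. Cox7b2, a testis form, lay between 2.61 and 2.94, and Ndufb4, a common complex I subunit, at 4.05 to 4.51. Cox7c of complex IV, which enters the medians of that complex, lay between 3.22 and 4.65. Levels of different probe sets cannot be ranked.

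Assembly factors outside the rule, which load copper, haem and iron-sulphur groups or build single modules, mostly did not pass. Of 37 measured, 6 rose and 2 fell in control refeeding, with a median of 0.12, against 3.29% and 3.17% of all genes. In LG2KO 3 rose and 1 fell, with a median of 0.03, against 4.66% and 2.4%. Coa3, which stabilises newly made Cox1 protein of complex IV, rose by 0.70 ± 0.08 in controls and by 0.63 ± 0.08 in LG2KO (adjusted p = 0.000288 and 0.000617). Coa6, which serves copper delivery to Cox2, was at 11.43, 11.22 and 11.40 in fasted and 10.56, 10.67 and 10.61 in refed controls. It fell by 0.73 ± 0.11 there and by 0.70 ± 0.11 in LG2KO (adjusted p = 0.00152 and 0.00213). The copper chaperone Sco2 fell by 0.68 ± 0.12 in control refeeding (adjusted p = 0.00547) and was at -0.31 ± 0.12 in LG2KO. Bcs1l, which inserts the Rieske protein into complex III, rose by 0.63 ± 0.13 in controls and 0.56 ± 0.13 in LG2KO, and by 0.78 in controls without the pair of arrays that stood apart.

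The calls of Coa3 and Coa6 in both genotypes, and of Sco2 in control refeeding, held without any 1 array. Bcs1l passed in 3 of 6 such fits in controls, missing without control refed replicates 2 and 3 and control fasted replicate 1, and in LG2KO it passed in 1 of 6, without LG2KO fasted replicate 3. The other 4 control rises, of Uqcc2, Cox18, Cox19 and Cox20, were each lost without at least 3 of the 6 arrays; they are named after their values were seen.

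By genotype 1 of the 37 assembly factors passed, higher in LG2KO, against 0.291% of all genes in refed livers and 0.737% averaged over feeding. This was Sco2, at 9.70, 9.77 and 9.61 in refed controls and 10.41, 10.44 and 10.28 in refed LG2KO livers. The groups were apart, and it rose by 0.68 ± 0.12 (adjusted p = 0.045), a call that was lost without any 1 of these 6 arrays and without the pair that stood apart (adjusted p = 0.0772). Averaged over feeding it rose by 0.50 ± 0.09 (adjusted p = 0.0194), a call that held without 7 of the 12 arrays and was lost without LG2KO refed replicate 1 or 2, control fasted replicate 3 or LG2KO fasted replicate 2 or 3.

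Among 16 measured regulators of mitochondrial genes, 2 fell in control refeeding (against 3.17% of all genes) and 4 in LG2KO (against 2.4%), and 0 rose. Ppargc1b, a coactivator of nuclear receptors that drives respiratory genes, was at 8.65, 8.56 and 8.51 in fasted and 7.64, 7.54 and 7.51 in refed controls. In LG2KO it was at 8.43, 8.44 and 8.14 when fasted and 7.68, 7.76 and 7.34 when refed. In both genotypes refed pools lay below fasted pools, and it fell by 1.01 ± 0.13 in controls (2.02-fold, adjusted p = 0.000412) and by 0.74 ± 0.13 in LG2KO (adjusted p = 0.00392).

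Its relative Ppargc1a, the fasting-induced coactivator of liver, was at 5.24, 5.15 and 4.93 in fasted and 4.83, 4.65 and 4.72 in refed controls, and at 5.45, 5.60 and 5.21 and then 4.98, 4.83 and 4.72 in LG2KO. It fell by 0.58 ± 0.13 in LG2KO (adjusted p = 0.0185), and was at -0.37 ± 0.13 in controls (adjusted p = 0.14). The LG2KO call passed without LG2KO refed replicate 1 or LG2KO fasted replicate 3 and was lost without any 1 of the other 4 arrays, whereas those of Ppargc1b, Sirt3 and Myc in LG2KO held in all 6 such fits. Sirt3, a mitochondrial deacetylase, fell by 0.63 ± 0.07 and 0.45 ± 0.07 in control and LG2KO refeeding (adjusted p = 0.000184 and 0.00214). Myc fell by 1.41 ± 0.26 in LG2KO (adjusted p = 0.00578) and was at -0.88 ± 0.26 in controls. Esrra, Nrf1 and Gabpa, the factors nearest to respiratory gene promoters, and Tfam, which acts on mitochondrial DNA, did not pass in any of the 6 comparisons. Neither did the electron carrier genes Cycs and Cyc1 or the ATP synthase inhibitor gene Atpif1.

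The levels of Gabpa and Tfam followed the pair of arrays that stood apart. Tfam, which packages and transcribes mitochondrial DNA, was at 7.40, 6.25 and 6.08 in refed controls and at 7.76, 6.92 and 5.98 in fasted LG2KO livers. Gabpa, an ETS-family factor, was at 6.96, 5.93 and 5.61 in refed controls and at 6.79, 6.42 and 5.75 in fasted LG2KO livers. In both genes control refed replicate 1 was the highest of its group and LG2KO fasted replicate 3 the lowest of its group, as for Ndufs1 and Sdha among the members. Esrra, an estrogen-related receptor, was lowest on control refed replicate 1, at 8.08 against 8.51 and 8.65 on the other refed control arrays.

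**Figure D5:**
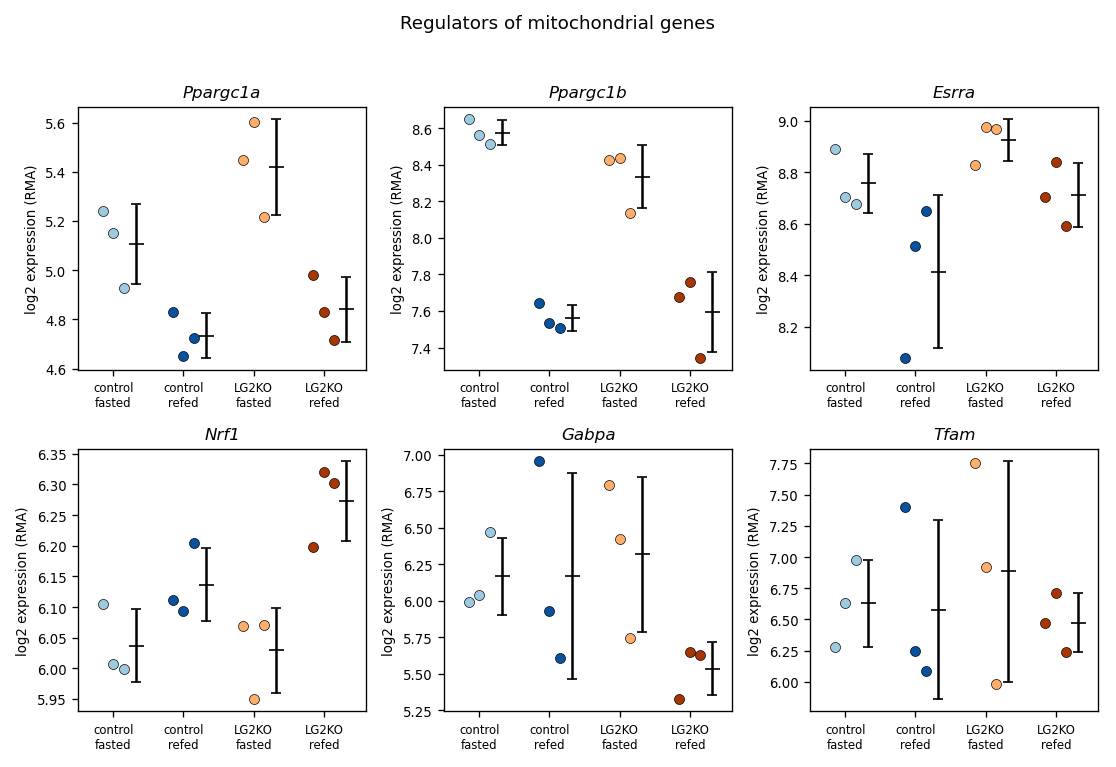
Log2 level (vertical axis) of the regulators Ppargc1a, Ppargc1b, Esrra, Nrf1, Gabpa and Tfam, 1 panel per gene; points are the 3 arrays of each group and bars the mean ± SD, with groups in the order control fasted, control refed, LG2KO fasted and LG2KO refed. Ppargc1a and Ppargc1b are lower on refed than on fasted arrays of both genotypes, while the points of Gabpa and Tfam are widely spread within groups.

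Of 13 measured genes of the tricarboxylic acid cycle, 1 rose and 0 fell in control refeeding, against 3.29% and 3.17% of all genes. In LG2KO 1 rose and 3 fell, against 4.66% and 2.4% of all genes. Citrate synthase, Cs, rose by 0.47 ± 0.10 in controls and 0.36 ± 0.10 in LG2KO. Idh3b, Dlst and Fh1, enzymes of later steps of the cycle, fell in LG2KO by 0.32 ± 0.09, 0.33 ± 0.08 and 0.55 ± 0.13. These calls depended on single arrays. In LG2KO Cs missed without any 1 of the 6 arrays, and Idh3b, Dlst and Fh1 each missed without LG2KO refed replicate 2 or 3 or LG2KO fasted replicate 1 or 2. In controls Cs missed without control refed replicate 2 or 3.

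Of 9 carriers and enzymes feeding electrons to cytochrome c or ubiquinone, 1 rose in control refeeding and 1 fell in LG2KO refeeding. Among all genes 3.29% rose and 2.4% fell in these comparisons. Gpd2, of the glycerol phosphate shuttle, rose by 0.79 ± 0.18 in control refeeding (adjusted p = 0.0177). It passed without control refed replicate 1 or control fasted replicate 3 and missed without any 1 of the other 4 arrays. Etfdh, which passes electrons from fat oxidation to ubiquinone, fell by 0.62 ± 0.17 in LG2KO refeeding (adjusted p = 0.0478). The Etfdh call held in 1 of 6 fits that left out an array, the one without LG2KO fasted replicate 3, and the difference ran from -0.81 to -0.47 over these fits. Without the pair that stood apart it was -0.81 (adjusted p = 0.000409).

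Of 13 measured genes that copy and transcribe mitochondrial DNA, Polg2, an accessory subunit of its polymerase, fell by 0.73 ± 0.14 in control and 0.81 ± 0.14 in LG2KO refeeding, also without any 1 array, and no other gene of that list passed in any comparison. Of 14 genes of the outer membrane and import, 1 rose in control refeeding, and 1 rose and 2 fell in LG2KO. Of all genes, 3.29% rose and 3.17% fell in control refeeding, and 4.66% rose and 2.4% fell in LG2KO. The chaperonin Hspe1 rose by 0.46 ± 0.08 in controls, also without any 1 array, and by 0.34 ± 0.08 in LG2KO, where it missed without LG2KO refed replicate 1 or 2 or LG2KO fasted replicate 2 or 3. The pores Vdac1 and Vdac2 fell by 0.29 ± 0.07 and 0.26 ± 0.07 in LG2KO. Both missed without LG2KO refed replicate 2 or 3 or LG2KO fasted replicate 1 or 2, and Vdac2 also without LG2KO fasted replicate 3.

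Of 12 measured genes of coenzyme Q synthesis, 1 fell in control refeeding, against 3.17% of all genes. In fasted livers 1 was lower in LG2KO (against 0.0879%), and averaged over feeding 1 was higher (against 0.737%). Coq8b fell by 0.50 ± 0.11 in control refeeding (adjusted p = 0.0137), a call lost without control fasted replicate 1 or 2. It was 0.61 ± 0.11 lower in fasted LG2KO than in fasted control livers (adjusted p = 0.0268), and that call was lost without any 1 of the 6 fasted arrays, with an adjusted p of up to 0.155. Coq8a was higher in LG2KO averaged over feeding, by 0.40 ± 0.07 (adjusted p = 0.0202). That call was lost without LG2KO refed replicate 1 or 2, control fasted replicate 2 or 3, or LG2KO fasted replicate 2 or 3.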

How the data were processed

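Liver RNA of 12 pools was measured on an Affymetrix array. The deposited log2 values come from RMA, per the submitters' processing notes. RMA subtracts background, gives every array 1 distribution and merges the probes of each set; its software and version: not given in the sources used here. A shared distribution hides any change shared by all genes. Of 45101 probe sets, 34958 had 1 symbol in the platform annotation, 932 several and 9211 none here. The brightest probe set stood for each of 18194 symbols; the 90 members came from 179 probe sets, 51 members having more than 1, and all matched RefSeq by Entrez number.

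Differences were fitted with limma 3.58.1 in R 4.3.3 (1 mean per group, all 12 arrays, 8 residual degrees of freedom, eBayes with intensity trend, two-sided). P-values were adjusted by Benjamini-Hochberg over all genes within each of 6 comparisons; an adjusted p below 0.05 counts as passing, errors are standard errors and intervals are 95%. Levels of different probe sets are not comparable. The fit was also run on simulated data with independent noise on every array and no arrays standing apart. These data differ in that, so the simulation says nothing of the arrays that stood apart. The number of arrays limits the precision. The named members were those that passed, the extremes of each complex and a fixed set of well-known subunits; at most 4 genes were named per pathway list and comparison, and other names were chosen after their values were seen. The members, lists and rules were chosen with earlier results of these data known. Alternatives were other priors and filters, array weights, centring of each array on the mean of the brighter 9097 genes, a replicate block and leaving out arrays. Plots used matplotlib 3.10.9 (Python 3.11.15).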

Additional observations from a re-analysis of the deposited data

How the results depend on the processing

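Of 3454 named values under the alternatives, 3337 kept direction and side of the threshold, 82 lost their call, 35 gained one and 0 reversed. Members called are given in the order refed genotype, fasted genotype, control refeeding, LG2KO refeeding, interaction and mean genotype, where the main counts were 0, 0, 6, 7, 0 and 2. The share of all genes called moves with the fit too. Without the pair of arrays that stood apart it rose in both refeeding comparisons, as given above. That share is not given beside the counts here, so they are not read as particular to the members. Array weights gave 2, 2, 12, 28, 0 and 6, with a median interaction of -0.0755. Without the pair of arrays that stood apart they were 1, 1, 10, 21, 0 and 2, with medians of -0.0148 in control refeeding and -0.088 for the interaction. Without the intensity trend control refeeding gave 3, LG2KO refeeding 3 and mean genotype 1. Fitting only the groups compared gave 2 in control refeeding. Among the brighter 9097 genes refed genotype gave 1 (Ndufb2), fasted genotype 1 (Ndufa8) and LG2KO refeeding 12. Centred arrays gave 3 in control refeeding (2 higher, 1 lower) and 1 for mean genotype. With the replicate number as a block mean genotype gave 1, as Ndufa13 missed, control refeeding gave 5 and LG2KO refeeding 6. Deviations from group means correlated at -0.42 to 0.71 between same-numbered arrays, with 5 of 18 pairs above 0.1. Between different-numbered arrays of different groups the range was -0.75 to 0.46. The highest same-numbered values, 0.71 each, joined control refed and LG2KO fasted arrays of replicates 1 and 3. Both involve an array that stood apart, so whether the numbers pair the pools cannot be told from these values. Leaving out 1 array gave 0 to 1, 0 to 0, 1 to 8, 1 to 7, 0 to 0 and 1 to 4 members, and medians of -0.0242 to 0.0363, 0.0417 to 0.0580, -0.0684 to -0.0148, -0.0871 to -0.0555, -0.0804 to -0.0159 and 0.0178 to 0.0448. The cause of these shifts was not tested. With 3 pools a group and signal over background unknown, a member that did not pass is not shown to be unchanged.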
